A study of Mus musculus with 7 samples.

Results

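The V segments of the mouse kappa light chain are the genes whose symbols begin with Igkv, and each encodes most of the variable domain of a kappa chain. The deposited table lists 158 of them among 46959 features. The 121 with 10 or more reads summed over the 7 libraries are described here, by family (the first number of the symbol) and as a share of all Igkv reads. They hold 1107250 reads, against 80 reads for the 37 segments under the limit, of which 12 are at 0. Just outside the limit stand Igkv13-82 with 9 reads and Igkv3-8 with 8, and just inside it stand Igkv2-105, Igkv9-128 and Igkv1-115 with 11 reads each.

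The libraries come from mouse spleen B cells that were purified and grown for 4 days with lipopolysaccharide (LPS, a bacterial activator of B cells) at 1 µg/mL and interleukin 4 at 20 ng/mL. There are 3 wild-type cultures (WT) and 4 cultures labelled cKO MED1, a conditional knockout of Med1, which encodes a subunit of the Mediator complex that links enhancers to RNA polymerase II. Both groups had the same activation, and the series title asks about Med1 in antibody heavy chain expression, hypermutation and recombination, so the kappa segments are a neighbouring readout. Not given in the sources used here are the Cre driver, strain, sex and age of the mice, and whether each replicate was a separate mouse. No p-value below therefore speaks for more than these cultures, whose spread may be partly technical. The limma fits also borrow spread from other genes, as described below.

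In a developing B cell the RAG1 and RAG2 recombinase joins 1 V segment to 1 of the Igkj segments, and the joined exon is then transcribed from the promoter of that V segment and spliced to the constant gene Igkc. V segments lie in both orientations, so that some join by deletion and others by inversion of the DNA between them. The V segment usage of a B cell population therefore reflects both which joins its cells carry and how much each cell transcribes, and in bulk RNA fewer cells using a segment and less RNA per cell cannot be told apart.

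The 121 segments lie on chromosome 6 of GRCm38 between 67555497 and 70704177, a span of 3148.7 kb, upstream of Igkj1. Of these, 98 are annotated as functional V genes, 22 as pseudogenes and 1, Igkv8-23-1, has no entry in the GENCODE M21 annotation. They fall into 20 families. On the strand of Igkc lie 52 of them, and 68 lie on the opposite strand.

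The ends of 8 segments are shown because the largest shares and the differences between groups turn on these segments. Each is the 3′ end of the spliced transcript of the segment in GENCODE M21 on GRCm38, 5′ to 3′, from 12 bases before the codon of the conserved cysteine, which is in capitals, to the last base before the junction with a J segment. The bases after the capitals start the third complementarity-determining loop, a part of the antibody that contacts antigen.
Igkv1-117: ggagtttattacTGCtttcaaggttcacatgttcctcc
Igkv1-110: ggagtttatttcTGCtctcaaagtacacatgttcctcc
Igkv1-135: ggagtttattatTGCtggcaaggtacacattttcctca
Igkv8-30: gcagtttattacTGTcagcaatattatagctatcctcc
Igkv8-16: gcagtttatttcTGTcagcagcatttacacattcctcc
Igkv2-109: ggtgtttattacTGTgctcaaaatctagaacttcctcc
Igkv11-125: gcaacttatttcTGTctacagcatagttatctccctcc
Igkv9-124: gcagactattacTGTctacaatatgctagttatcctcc

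Before the comparisons, the libraries were checked. They hold 31937372 to 61149274 recovered reads, and the shallowest WT library was deeper than the deepest of cKO MED1. Med1 itself was lower in cKO MED1, with 4755, 4173 and 4210 normalised reads in WT and 2585, 2172, 2249 and 2436 in cKO MED1 (log2 difference -0.89, limma adjusted p = 0.000174). The B cell markers Cd79a, Cd79b, Ms4a1, Cd22 and Pax5 were present in all libraries and each was called lower in cKO MED1, by limma log2 differences of -0.88, -0.40, -0.66, -0.39 and -0.37; their part in the Igkv results was not tested. The summed T cell, myeloid and erythroid lists reached at most 2.38, 6.87 and 4.98 CPM (reads scaled to the library total). By the sex-linked genes Xist and Ddx3y, all 3 WT libraries and cKO MED1 replicate 3 were male and the other 3 cKO MED1 libraries female, so genotype and sex can be told apart only through replicate 3. The fourth cKO MED1 library stands apart in several segments, and results that rest on it are given with and without it.

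As a share of all reads, total kappa V RNA was lower on average in cKO MED1, but the libraries of the groups overlapped. Igkv reads made up 0.322%, 0.315% and 0.485% of all reads in WT and 0.301%, 0.280%, 0.355% and 0.253% in cKO MED1, which overlap. WT averaged 0.374% ± 0.0960 (SD, n = 3) and cKO MED1 0.297% ± 0.0434 (SD, n = 4). A two-sided exact permutation test over the 35 assignments of libraries to groups gave p = 0.2, where the smallest p possible is 0.0286. The difference of -0.0769 percentage points was -0.0215 without WT replicate 3 (exact permutation p = 0.533). It also depends on scaling by total reads. On that scale the median log2 difference was -0.21 over all genes and -0.36 over the tested segments. By the TMM scaling described below these medians were 0.04 and -0.12. The highest library of each group, replicate 3, was also the highest of its group for Jchain, which encodes the joining chain of secreted antibody, with 62597 normalised reads in WT replicate 3 and 27607 in cKO MED1 replicate 3, against at most 39377 and 13430 in the others. The plasma cell list, which holds Jchain, likewise summed highest in these libraries, at 3633 CPM and 2334 CPM, and its part in the Igkv share was not tested. The members of that list did not move one way between the groups. Of its 8 genes, Jchain (log2 difference -1.58, limma adjusted p = 0.00455) and Sdc1, a surface protein of plasma cells (-1.22, limma adjusted p = 0.00522), were lower in cKO MED1. Prdm1, which encodes the plasma cell regulator Blimp-1 (0.71, limma adjusted p = 0.00785), and Irf4 (0.41, limma adjusted p = 0.0414) were higher.

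Scaled to the constant gene, the ratio was narrower. There were 0.683, 0.657 and 0.712 Igkv reads per Igkc read in WT and 0.613, 0.631, 0.667 and 0.622 in cKO MED1, means of 0.684 ± 0.0277 (SD, n = 3) and 0.633 ± 0.0236 (SD, n = 4), with 1 cKO MED1 library inside the WT range (exact permutation p = 0.0857, Benjamini-Hochberg adjusted over 9 summary measures 0.193). Igkc itself was not called, with a log2 difference of 0.04 and an SE of 0.23, and none of the 5 Igkj genes was called, at -0.05 for Igkj1, -0.07 for Igkj2, 0.27 for Igkj3, 0.07 for Igkj4 and 0.14 for Igkj5. The evenness of usage was summarised as the effective number of segments, the number of equally used segments that would give the same diversity. It was 48.5, 49.1 and 47.7 in WT and 48.6, 48.1, 48.1 and 45.6 in cKO MED1, with overlap and an exact permutation p of 0.514. The difference in means of -0.817 was -0.153 without cKO MED1 replicate 4 and -0.468 without WT replicate 2.

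**Figure D1:**
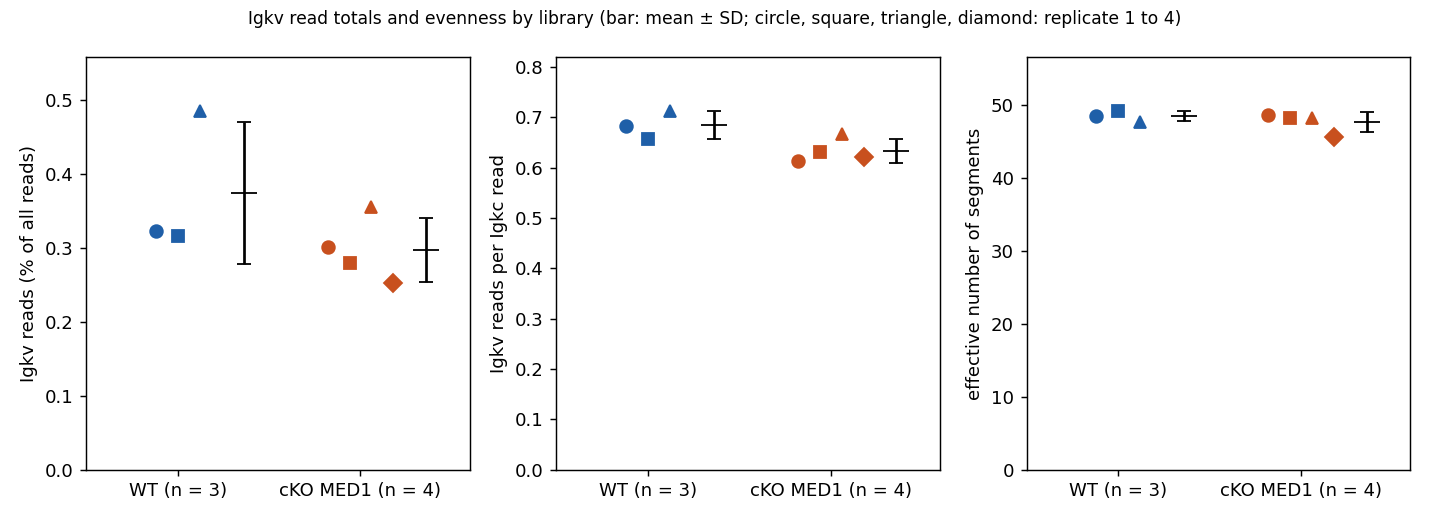
Igkv reads as a percentage of all reads (left), Igkv reads per Igkc read (middle) and the effective number of segments (right) in each library, with the replicate number given by the marker and the group mean ± SD as a bar beside the points. The groups overlap in all 3 panels, and WT replicate 3 stands above the others at 0.485% of reads.

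A few segments carried most of the reads. On average over the 7 libraries 13 segments made up the first 50% of Igkv reads and 30 segments with at least 1% each held 76.9%, while 3 exceeded 5%. All 3 belong to family Igkv1. Igkv1-117 (68121046 to 68121827) took 8.17% of Igkv reads on average, Igkv1-110 (68270485 to 68271267) 7.25% and Igkv1-135 (67609713 to 67610508) 6.88%. Scaled per exon length their shares were 7.53%, 6.74% and 6.51%, followed by Igkv6-15 at 4.50% and Igkv10-96 at 4.29%, and 9 of the 10 largest were the same in both rankings.

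The largest segments did not keep a fixed order from library to library. Igkv1-117 held 8.61%, 7.94% and 8.97% in WT and 8.34%, 8.33%, 8.23% and 6.78% in cKO MED1. Igkv1-110 held 6.99%, 6.15% and 7.26% in WT and 9.10%, 6.58%, 7.41% and 7.29% in cKO MED1. Igkv1-135 held 7.14%, 7.17% and 7.02% in WT and 5.91%, 7.81%, 7.47% and 5.66% in cKO MED1. WT and cKO MED1 overlap in share for all 3 segments. Igkv1-110 was above Igkv1-117 in cKO MED1 replicates 1 and 4. Igkv1-117 and Igkv1-110 are 97.5% identical in sequence, and 83.9% and 83.8% of their windows of 100 bases occur in no other segment, so the split of reads between them is uncertain.

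The other 7 of the 10 largest differed little or moderately between the groups. Igkv10-96 was lower in every cKO MED1 library, at 4.37%, 4.47% and 4.46% in WT and 3.87%, 4.16%, 3.90% and 3.74% in cKO MED1. Igkv8-24 was also lower throughout, at 3.54%, 3.56% and 3.44% against 2.82%, 3.09%, 3.07% and 2.98%. Igkv5-43, Igkv8-30 and Igkv8-27 were higher in every cKO MED1 library, so that 5 of the 10 largest did not overlap in share. Of all 18062 genes tested, 16.6% did not overlap when scaled to the same Igkv total. By the TMM scaling described below the groups overlapped for all 5, beside 39.1% of all genes without overlap. Of these 5, the fit across all genes per Igkv read, described below, called Igkv8-30. Igkv6-15 and Igkv12-44 overlapped between groups.

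Segment usage was reproducible between cultures. Over 104 segments with at least 100 reads, Spearman's rho of the shares was 0.992 to 0.994 between WT libraries, 0.978 to 0.991 between cKO MED1 libraries and 0.961 to 0.983 between a WT and a cKO MED1 library. The median absolute log2 difference in share per pair was 0.136 to 0.199 within WT, 0.155 to 0.248 within cKO MED1 and 0.237 to 0.357 between groups. These are descriptions across segments, which share each library's depth and are not replicates. For the 30 segments of at least 1%, the median coefficient of variation between libraries was 7.57% in WT and 9.48% in cKO MED1 (6.87% without replicate 4), against 1.58% and 2.19% from counting alone.

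By family, Igkv1 held the largest share with overlap between groups, at 23.5% ± 1.08 (SD, n = 3) in WT and 23.4% ± 1.83 (SD, n = 4) in cKO MED1. Family Igkv8 was higher in cKO MED1, at 11.6%, 12.2% and 11.4% in WT and 13.6%, 14.5%, 14.1% and 12.4% in cKO MED1, without overlap. Family Igkv12 was lower, at 6.66%, 7.20% and 7.44% against 6.22%, 5.89%, 5.76% and 5.62%. The smaller families Igkv9 and Igkv13 lay on the same side as Igkv12. Igkv9 held 3.36%, 2.89% and 3.49% in WT and 2.17%, 2.32%, 2.32% and 2.02% in cKO MED1. Igkv13, read almost only from Igkv13-84, held 0.849%, 0.934% and 0.805% in WT and 0.421%, 0.522%, 0.656% and 0.462% in cKO MED1.

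Of the 20 families, 9 did not overlap between groups, which were Igkv2, Igkv8, Igkv9, Igkv10, Igkv11, Igkv12, Igkv13, Igkv15 and Igkv16. The same 16.6% of all genes is not a like background, because families are sums of parts of the Igkv total and other genes are not. The shares of families are also tied to each other because they sum to a whole. The exact permutation p was 0.0286, the smallest possible, for Igkv9, Igkv12 and Igkv13, and the lowest value adjusted over the 20 families was 0.143, so no family passed 0.05. Family Igkv2 was higher through cKO MED1 replicate 4 above all, at 1.54%, 1.70% and 1.70% in WT and 2.42%, 1.98%, 2.28% and 9.07% in cKO MED1. The 3 families under 0.1% of Igkv reads, Igkv7, Igkv18 and Igkv20, ranged from 0.0173% to 0.0281% on average.

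**Figure D2:**
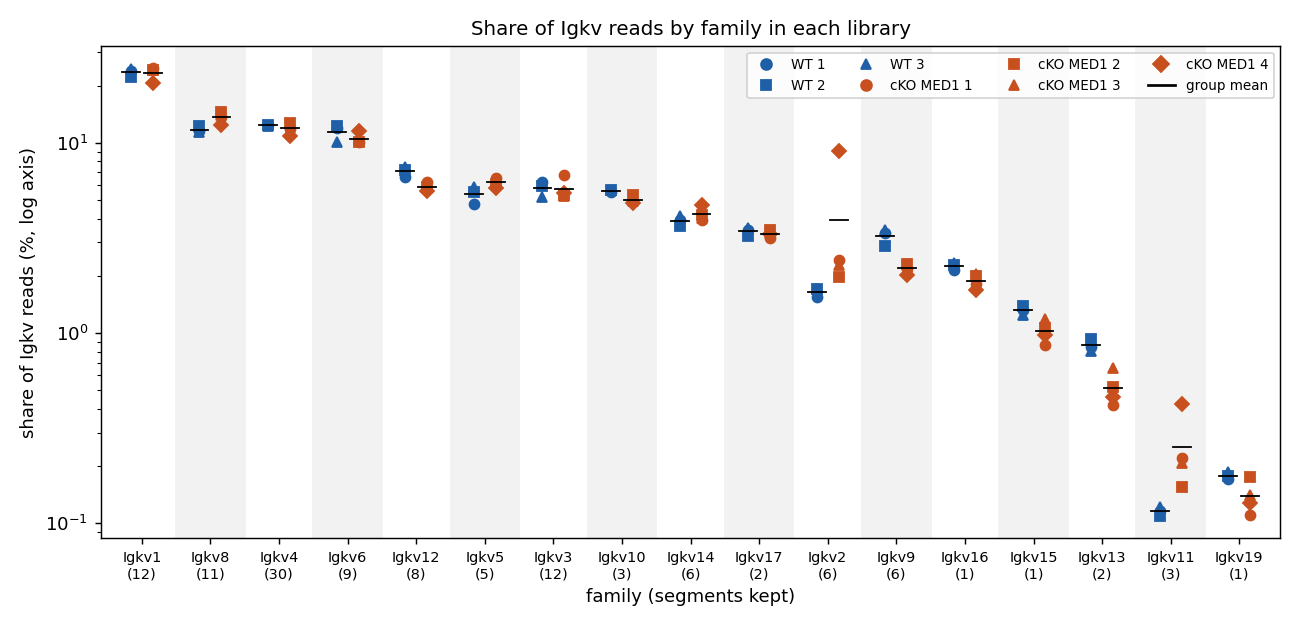
Share of Igkv reads of the 17 families with at least 0.1% on average, on a log axis, with 1 point per library, the WT libraries left and the cKO MED1 libraries right in each column, and a line at each group mean; the number of segments kept is in parentheses. Igkv8 lies higher and Igkv9, Igkv12 and Igkv13 lie lower in all 4 cKO MED1 libraries, and replicate 4 is far above the rest in Igkv2 at 9.07%.

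Single segments were tested with limma on log2 of normalised reads plus 1, fitted across all 18062 genes that passed the low-count filter. Of the 121 segments, 107 passed the filter. When libraries were scaled by TMM (trimmed mean of M values, from all genes), 6 segments were called higher and 10 lower in cKO MED1 at an adjusted p of 0.05. Among all genes tested 13.4% were called higher and 14.6% lower, so the share of Igkv segments called was below the background. The median log2 difference of the 107 was -0.12 beside 0.04 over all genes. When the libraries were instead scaled to a common Igkv total, which measures usage within the kappa V reads, 6 segments were called higher and 2 lower, beside 11% and 1.27% of all genes. The background on that scale holds every gene that moves against the Igkv total, so the percentages describe the scale as well as the genes. This fit also gave nearly the same SE to all common segments, whatever their own spread. It was 0.29 for Igkv12-46 (SD 69.3 in WT and 53.5 in cKO MED1) and for Igkv2-109 (SD 117 and 5433). The limma p-values per Igkv read thus rest on a spread shared across genes. They do not measure how much a segment's own share varied among cultures.

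Both fits called 4 segments higher, Igkv8-16, Igkv8-23-1, Igkv8-30 and Igkv11-125, and 2 lower, Igkv9-124 and Igkv3-11. Without cKO MED1 replicate 4 the counts were 4 higher and 3 lower by TMM and 1 higher and 1 lower per Igkv read. Calls over all genes fell too, from 2419 and 2646 to 1289 and 1523 by TMM, and from 1986 and 230 to 886 and 159 per Igkv read. Without WT replicate 3, the library with the most Igkv reads, the segment counts were 13 and 4 by TMM and 6 and 4 per Igkv read. Over all genes they were 1613 and 2573, and 1381 and 880. With the sex of the library in the model, 1 segment was called higher and 0 lower in each fit, and the median of the 107 by TMM turned from -0.12 to 0.24. The same model called 109 of all genes higher and 119 lower by TMM, and 129 higher and 111 lower per Igkv read.

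Family Igkv8, which lies in the J-proximal part of the locus, held 3 of the 4 segments called higher in both fits, and also the segment with the lowest adjusted p among those called lower by TMM. Igkv8-30 (70117061 to 70117620), a functional gene opposite to Igkc in orientation, made up 1.59%, 1.87% and 2.14% of Igkv reads in WT and 2.96%, 3.52%, 3.61% and 2.89% in cKO MED1. In share, every cKO MED1 library was above every WT library. By TMM the groups overlapped, with 4534 normalised reads in WT replicate 3 against 4085 and 4270 in cKO MED1 replicates 1 and 4. The log2 difference per Igkv read was 0.80 (SE 0.29, limma adjusted p = 0.0490) and by TMM 0.73 (SE 0.24, limma adjusted p = 0.0402). This call was close to the threshold and was lost per Igkv read in 6 of the 7 fits that left out 1 library, with adjusted p up to 0.260, and by TMM in 5 of the 7, with adjusted p up to 0.200.

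Igkv8-16 (70386672 to 70387252) is a rarer segment with 1776 reads in all. Its share was 0.127%, 0.0938% and 0.107% in WT and 0.194%, 0.205%, 0.201% and 0.366% in cKO MED1. The groups did not overlap, and replicate 4 was the highest. The log2 difference was 1.09 per Igkv read (SE 0.30, limma adjusted p = 0.00507) and 1.02 by TMM (limma adjusted p = 0.0140), and the TMM call was kept in all 7 fits that left out 1 library. Per Igkv read it was lost without cKO MED1 replicate 4 (limma adjusted p = 0.118) and without WT replicate 2 (limma adjusted p = 0.0648).

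Igkv8-23-1 (70240427 to 70240710, position from RefSeq) has no GENCODE M21 entry, so its orientation and likeness to other segments were not assessed. It is therefore outside the inverted and pseudogene shares given below. Its share was 0.188%, 0.172% and 0.171% in WT and 0.326%, 0.315%, 0.305% and 0.455% in cKO MED1. The WT libraries lay close together and all 4 cKO MED1 libraries stood above them. Its log2 difference was 0.89 by TMM (SE 0.18, limma adjusted p = 0.00739), kept in all 7 fits that left out 1 library, and 0.96 per Igkv read (limma adjusted p = 0.0139), lost without WT replicate 1, WT replicate 2 or cKO MED1 replicate 4 (limma adjusted p up to 0.156). Igkv8-27, a common segment of the same family, held 2.03%, 2.31% and 2.23% in WT and 2.83%, 3.43%, 3.08% and 2.64% in cKO MED1, again without overlap, but its log2 difference per Igkv read of 0.45 was not called (limma adjusted p = 0.405).

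Igkv8-28 (70143593 to 70144166) differed in the other direction. It had 2018, 2029 and 2497 TMM-normalised reads in WT and 1142, 1278, 1741 and 988 in cKO MED1, without overlap. The log2 difference was -0.79 by TMM (SE 0.16, limma adjusted p = 0.00817) and was kept in all 7 fits that left out 1 library. Per Igkv read it was -0.71 and not called (limma adjusted p = 0.0920). Over the 11 tested Igkv8 segments, 5 were higher and 2 lower in every cKO MED1 library per Igkv read. Of all genes 16.6% did not overlap in either direction, which is not a like background for parts of the Igkv total. The median log2 difference of the 11 was 0.45.

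The closest relative of Igkv8-28 is Igkv8-19, and the last 300 bases of their transcripts (GENCODE M21, GRCm38, 5′ to 3′) are shown because near-identical segments can exchange reads in counting. Capitals mark the 7 bases at which they differ.
Igkv8-28: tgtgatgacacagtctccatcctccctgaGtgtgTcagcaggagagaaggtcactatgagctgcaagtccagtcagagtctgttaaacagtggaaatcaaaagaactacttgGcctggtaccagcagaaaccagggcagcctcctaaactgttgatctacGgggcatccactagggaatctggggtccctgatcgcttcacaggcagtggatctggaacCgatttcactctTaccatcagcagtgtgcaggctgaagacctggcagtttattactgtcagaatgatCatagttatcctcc
Igkv8-19: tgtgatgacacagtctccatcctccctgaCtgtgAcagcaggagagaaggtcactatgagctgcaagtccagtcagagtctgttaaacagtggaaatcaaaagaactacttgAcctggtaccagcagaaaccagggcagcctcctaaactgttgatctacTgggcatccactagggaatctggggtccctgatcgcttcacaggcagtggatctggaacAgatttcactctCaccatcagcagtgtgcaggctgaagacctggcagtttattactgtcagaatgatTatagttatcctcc

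Igkv8-19 held 1.78%, 2.01% and 1.44% of Igkv reads in WT and 1.51%, 1.90%, 1.73% and 1.47% in cKO MED1, which overlap. The share of Igkv8-28 was lower in every cKO MED1 library, at 1.49%, 1.42% and 1.18% in WT and 0.826%, 0.944%, 0.892% and 0.668% in cKO MED1. All windows of 100 bases of Igkv8-28 are unique among the segments. Over all tested segments, likeness to another segment was similar for those called in either fit and those not called. The median identity to the nearest segment was 93.9% for the 17 of 18 called segments that have a transcript and 94.2% for the 89 not called, and the median share of unique windows was 100% in both.

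The J-distal families Igkv2, Igkv11 and Igkv14 gave the other calls higher per Igkv read. Igkv2-109 (68302427 to 68303158) held 1.05%, 1.14% and 1.20% in WT and 1.71%, 1.24%, 1.47% and 8.33% in cKO MED1. The value of replicate 4, from 6735 reads, has a 95% exact (Clopper-Pearson) interval of 8.14% to 8.53%, which covers counting error only. The log2 difference was 1.00 per Igkv read (SE 0.29, limma adjusted p = 0.00930). That SE is the one shared across genes and does not reflect the spread of these 4 cKO MED1 libraries. Without replicate 4 the difference was 0.38 and not called (limma adjusted p = 0.869), although the other 3 cKO MED1 libraries were still above all WT libraries. By TMM it was 0.93 with an SE of 0.52 and was not called (limma adjusted p = 0.184).

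Igkv11-125 (67913573 to 67914052) and Igkv14-126 (67896172 to 67896642) are neighbours among the kept segments in the J-distal part, on the strand of Igkc. Igkv11-125 held 0.114%, 0.108% and 0.120% in WT and 0.219%, 0.150%, 0.203% and 0.423% in cKO MED1. Igkv14-126 held 0.396%, 0.396% and 0.476% in WT and 0.956%, 0.503%, 0.548% and 1.59% in cKO MED1. In both, replicate 4 was the highest and replicate 1 the next, and all 4 cKO MED1 libraries were above WT. The log2 differences per Igkv read were 1.01 (limma adjusted p = 0.0103) and 0.93 (limma adjusted p = 0.0171), and neither was called without replicate 4, with adjusted p of 0.277 and 0.480. By TMM Igkv11-125 was higher by 0.94 (limma adjusted p = 0.0437), lost in 5 of the 7 fits that left out 1 library. The groups overlapped on that scale, with 254 normalised reads in WT replicate 3 and 203 in cKO MED1 replicate 2.

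Igkv9-124 (67942074 to 67942540), opposite to Igkc in orientation and 2780 kb from Igkj1, was lower in both fits. It held 1.01%, 0.729% and 0.842% in WT and 0.492%, 0.541%, 0.535% and 0.346% in cKO MED1. The shares of the groups did not overlap, and cKO MED1 replicate 4 was the lowest. By TMM the groups overlapped slightly, with 1040 normalised reads in WT replicate 2 and 1044 in cKO MED1 replicate 3. The log2 difference was -0.92 by TMM (SE 0.22, limma adjusted p = 0.0140), kept in all 7 fits that left out 1 library, and -0.85 per Igkv read (limma adjusted p = 0.0327), lost in 5 of the 7. Its relative Igkv9-120, the largest member of the family, held 2.13%, 1.95% and 2.43% against 1.51%, 1.55%, 1.49% and 1.496%. Igkv9-120 was called lower by TMM (log2 difference -0.59, limma adjusted p = 0.0446), with overlap between groups on that scale. It was not called per Igkv read (limma adjusted p = 0.299).

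The remaining segments called by TMM were smaller. Igkv3-7, at 0.428%, 0.379% and 0.358% in WT and 0.787%, 0.609%, 0.596% and 0.601% in cKO MED1, was higher by 0.66 (log2, limma adjusted p = 0.0104), and Igkv3-1, the segment nearest to the J segments among those kept, by 0.47 (limma adjusted p = 0.0454). Igkv4-90 was lower, with 102, 109 and 117 normalised reads in WT and 61.0, 44.8, 96.1 and 42.1 in cKO MED1 (log2 difference -0.91, limma adjusted p = 0.0281). The pseudogene Igkv3-11 was lower by -1.71 (limma adjusted p = 0.0247) on only 129 reads in all, and just 37.1% of its windows of 100 bases are unique, so its value is uncertain. Leaving out 1 library at a time, the TMM call of Igkv3-7 was lost without WT replicate 1 (limma adjusted p = 0.0576), that of Igkv3-11 without WT replicate 1 or 3, and those of Igkv3-1, Igkv4-90 and Igkv9-120 in 4 of 7 fits each. Igkv6-17, Igkv6-13, Igkv4-61, Igkv4-57-1 and Igkv13-84 were called lower by TMM with log2 differences from -0.83 to -0.56, all with overlap between groups on that scale. These calls were kept in 5, 4, 3, 3 and 5 of the 7 fits that left out 1 library, each was lost without cKO MED1 replicate 2 and without replicate 4, and with sex in the model the differences were -0.13, -0.04, -0.17, -0.01 and -0.11. Igkv4-53, among the most variable common segments, was high in 1 library, at 1.38%, 1.27% and 1.21% in WT and 1.36%, 2.29%, 1.37% and 1.15% in cKO MED1.

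**Figure D3:**
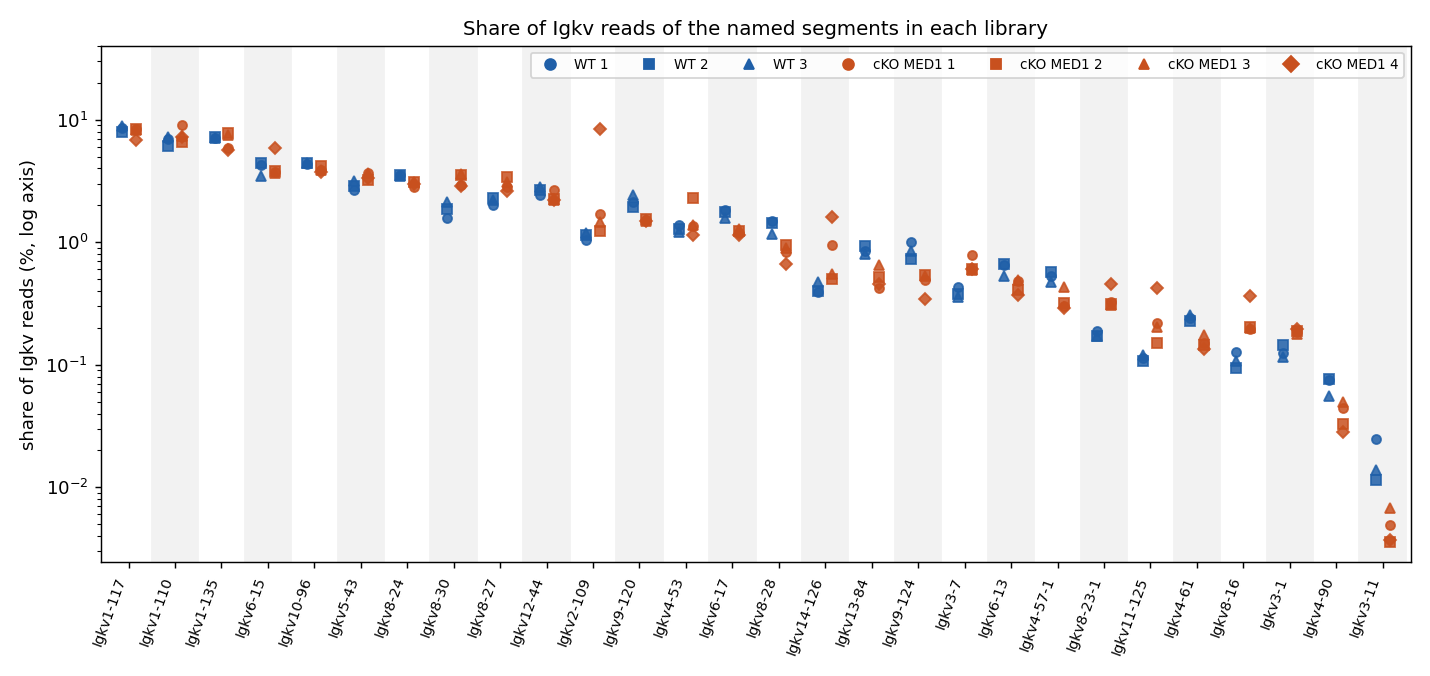
Share of Igkv reads (log axis) of the 28 segments that are named as large, called or variable, ordered by mean share, with 1 marker per library, WT left and cKO MED1 right in each column. Igkv8-30, Igkv8-23-1 and Igkv8-16 lie higher in every cKO MED1 library, Igkv8-28 and Igkv9-124 lower, and replicate 4 stands alone in Igkv2-109 at 8.33%.

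Over all 121 kept segments, the shares of 38 did not overlap between groups, 18 higher and 20 lower in cKO MED1. Among the 107 tested segments 36 did not overlap per Igkv read, beside 16.6% of all genes tested on that scale. By TMM 8 of the 107 did not overlap, beside 39.1% of all genes. The segments were thus above the background on the first scale and below it on the second. They are parts of the Igkv total and other genes are not, so the 16.6% is not a like background. Single libraries stood out in single segments in both groups and in both directions. A library was at least 1.5 times above the other 6 in 4 of 104 segments for cKO MED1 replicate 4 (Igkv2-109, Igkv14-126, Igkv11-125 and Igkv8-16), in 3 for replicate 1, 1 for replicate 2 and 2 for replicate 3, and in 1, 0 and 0 for the WT libraries. A library was as far below the other 6 in 1, 0 and 3 segments for the WT libraries and in 0, 1, 1 and 1 for cKO MED1. The highest of replicate 1 by share was Igkv8-21, at 1.97% (95% exact interval 1.89% to 2.06%) against at most 1.04% elsewhere.

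The span was divided into 3 equal parts of 1049.6 kb to compare usage along the locus. The J-distal part, with 37 segments, held 39.6%, 37.6% and 40.9% in WT and 39.1%, 39.2%, 39.6% and 42.9% in cKO MED1, with overlap (exact permutation p = 0.657). The middle part, also with 37 segments, held 19.3%, 19.6% and 19.3% in WT and 17.7%, 19.1%, 18.4% and 16.5% in cKO MED1. All 4 cKO MED1 libraries were below WT in the middle part (exact permutation p = 0.0571, adjusted over the 9 measures 0.171). The J-proximal part, with 47 segments, held 41.2% ± 1.52 (SD, n = 3) in WT and 41.9% ± 1.05 (SD, n = 4) in cKO MED1, with overlap (exact permutation p = 0.543).

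Orientation showed no difference beyond the spread. Segments opposite to Igkc in orientation, which join by inversion, held 52.1% ± 1.23 (SD, n = 3) of Igkv reads in WT and 51.8% ± 1.80 (SD, n = 4) in cKO MED1 (exact permutation p = 0.8). The 10 largest segments of each library together held 45.1%, 44.3% and 45.6% in WT and 45.8%, 46.6%, 46.9% and 49.6% in cKO MED1, higher in every cKO MED1 library (exact permutation p = 0.0571, adjusted 0.171). Segments annotated as pseudogenes held 1.15%, 1.08% and 1.14% in WT and 0.914%, 0.831%, 0.945% and 0.856% in cKO MED1, without overlap (exact permutation p = 0.0286, adjusted 0.171). Most of that share was 1 segment, Igkv12-47, named after its values were seen, at 0.921%, 0.865% and 0.956% in WT and 0.680%, 0.597%, 0.730% and 0.641% in cKO MED1.

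**Figure D4:**
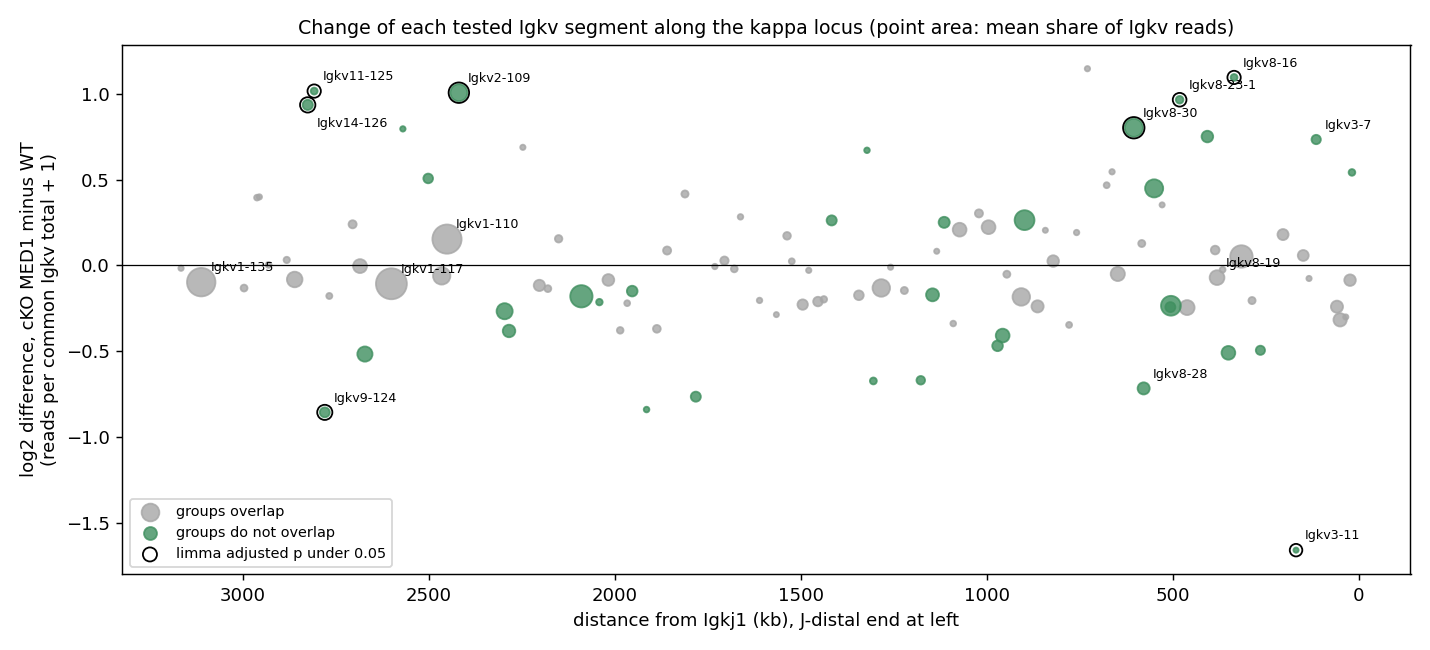
Log2 difference between cKO MED1 and WT per Igkv read for the tested segments, against the distance from Igkj1 in kb with the J-distal end at left; point area shows the mean share, green points did not overlap between groups and ringed points passed the limma test. Calls lie in the J-distal part (Igkv11-125, Igkv14-126, Igkv2-109, Igkv9-124) and the J-proximal part (Igkv8-30, Igkv8-23-1, Igkv8-16, Igkv3-11), and the middle part, with 36 tested segments, has none.

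Genes that act on the kappa locus were taken from a list of 31, of which 29 were tested by TMM. They comprise the recombinase, the end-joining factors that seal the joins, and the transcription factors and architectural proteins that bind the kappa enhancers and promoters. Of the 29, 5 were called higher and 7 lower in cKO MED1, beside 13.4% and 14.6% of all genes, with a median log2 difference of -0.16 beside 0.04 over all genes. Ikzf1, which encodes the lymphoid factor Ikaros, was lower by 0.46 on the log2 scale, from 13915, 13248 and 13521 normalised reads in WT to 10693, 10151, 9422 and 9191 in cKO MED1 (limma adjusted p = 0.00680). Irf8, a factor that binds the kappa 3′ enhancer together with PU.1, was lower by 0.50 (limma adjusted p = 0.00748), and Spib, a relative of PU.1, by 0.48 (limma adjusted p = 0.0130). Tcf4, which encodes the E protein E2-2, was higher by 0.41, from 6641, 6153 and 6713 to 9191, 8023, 8040 and 9308 (limma adjusted p = 0.0122).

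Xrcc5, which encodes the Ku80 subunit of the end-binding complex, was lower by 0.41 (limma adjusted p = 0.0178). Ctcf, which encodes the protein that anchors chromatin loops across the locus, was lower by 0.35 (limma adjusted p = 0.0193). The groups did not overlap for any of these 6 genes, beside 15 of the 29 listed and 39.1% of all genes. The 6 were picked by their adjusted p, so this lack of overlap is not separate support. Without WT replicate 1 the calls of Tcf4, Xrcc5 and Ctcf were lost (limma adjusted p = 0.0831, 0.0661 and 0.0838), that of Tcf4 also without WT replicate 2 (0.0900), and that of Xrcc5 without cKO MED1 replicate 4 (0.0502). Rag1, named for its role after its values were seen, was called higher but at very low levels, 1.38, 3.26 and 3.19 normalised reads in WT and 9.49, 10.7, 15.8 and 36.6 in cKO MED1 (log2 difference 2.26, SE 0.62, limma adjusted p = 0.0237). Background was read from receptor genes of the Olfr and Vmn families, silent in B cells. They had 0.00276, 0.00519 and 0.00436 CPM per kb in WT and 0.00495, 0.00644, 0.0104 and 0.0165 in cKO MED1. Within each group Rag1 ranked the libraries in the same order as this background, which overlapped between groups. The part of background in the Rag1 call was not tested. With the sex of the library in the model, 0 of the 29 genes were called lower, against 7 without it. Over all 18062 genes that model called 119 lower, against 2646 without sex, so the 0 is not particular to this list.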

How the data were processed

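RNA of 7 cultures was sequenced after ribosomal RNA depletion with a stranded total RNA kit, per the labels' protocols, as paired reads of 150 bp after 14 amplification cycles. The build was GRCm38 (mm10) and the tools included featureCounts of Subread 1.5.0-p3, STAR 2.4.0a and DESeq2, per the submitters' processing notes. Use of strand, and the handling of reads that match several segments, were not given in the sources used here. The authors deposited 1 table of signal values, which are read counts divided by 1 size factor per library: 100% of values were whole multiples of 1 read within 1e-06, and the reads were recovered from these steps.

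Libraries were scaled by TMM (edgeR 4.0.16) or to the common Igkv total, and log2 values with a pseudocount of 1 were tested with limma 3.58.1 (trend, Benjamini-Hochberg over 18062 genes, 0.05) after the edgeR filter on low counts. Shares and family sums were compared by two-sided exact permutation tests (Python 3.11.15). The scripts were tested on simulated data. Alternatives were edgeR's quasi-likelihood test and DESeq2 1.42.0 on the recovered reads, other scalings, filters, pseudocounts and thresholds, sex as a covariate, a replicate block, and leaving out libraries. Receptor genes of the Olfr and Vmn families, silent in B cells (1613 genes), put background at no more than 0.0286% of Igkv reads.

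Named segments are the 10 largest by share, up to 8 called per direction and fit with groups that do not overlap and the smallest adjusted p, the 5 with the largest ratio of highest to lowest share among those of at least 1%, those beside the 10-read limit, and up to 6 called genes of the kappa list; Igkc, the Igkj genes and Med1 are named whatever their result. Others were named after their values were seen: Igkv8-19, Igkv8-21, Igkv9-120, Igkv12-47, Rag1 and the TMM calls with overlapping groups. Members and lists were chosen with earlier results of these data known. Recombination signals and promoter octamers were not analysed here. 1 marker gene of the B cell list is not reported here.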

Additional observations from a re-analysis of the deposited data

Results flagged for a closer look

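Of 57 values examined in the 4 cKO MED1 libraries, 14 had 1 library far from the other 3, by a gap over the whole range above Dixon's 95% critical value. Chance alone flags about 1 in 20 such groups when they are not picked from the same data. Many segments among the 57 were picked because they were called or variable here, so the 14 cannot be set against that rate. Shares within a library are also tied to each other, so the 14 are not separate observations.

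Replicate 4 was the library that stood off in 10 of the 14. Its Igkv2-109 share was 8.33%, against 1.24% to 1.71% in the other 3, and with it the Igkv2 family share was 9.07%, against 1.98% to 2.42%. Igkv6-15 held 5.91%, against 3.70% to 3.80%, and the Igkv6 family 11.5%, against 10.1% to 10.3%. Igkv8-16 held 0.366%, against 0.194% to 0.205%, and Igkv8-23-1 0.455%, against 0.305% to 0.326%. Measures of the whole pool stood off as well. The J-distal share was 42.9%, against 39.1% to 39.6%, and the effective number of segments was 45.6, against 48.1 to 48.6. On the low side, the Igkv1 family held 20.7%, against 24.1% to 24.7%, and Igkv1-117 6.78%, against 8.23% to 8.34%.

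Replicate 1 stood off in the other 4. Its Igkv3 family share was 6.78%, against 5.29% to 5.46%, and its Igkv20 family share 0.0431%, against 0.0130% to 0.0148%. Igkv3-7 held 0.787%, against 0.596% to 0.609%, and Igkv12-44 held 2.65%, against 2.20% to 2.27%. Replicate 4 is also the shallowest library, with 31937372 reads and 80809 Igkv reads; the part of depth in these values was not tested.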

How the results depend on the processing

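The counts of called segments were the least stable results. By TMM, 6 higher and 10 lower became 1 and 1 at an adjusted p of 0.01, 1 and 0 with sex as a covariate, and 11 and 16 with the replicate block. Over all 18062 genes, 2419 higher and 2646 lower became 513 and 794, 109 and 119, and 1919 and 1822. The number of segments lower was also 24 with no filter on low counts, 2 with a filter of 1 CPM, 34 with total reads and 17 with the authors' size factors. Over all genes these were 3789 of 43065, 1624 of 12562, 4379 and 3585. Without cKO MED1 replicates 3 and 4, 0 segments were called higher, beside 869 of 17396 genes. Total reads and the authors' size factors shift the median of all genes from 0.04 to -0.21 and -0.10, and that of the Igkv segments from -0.12 to -0.36 and -0.25. Per Igkv read, 6 higher and 2 lower became 2 and 0 at 0.01, 1 and 0 with sex as a covariate, 12 and 11 with the replicate block, and 0 and 1 without replicates 3 and 4. Over all genes, 1986 and 230 became 1007 and 132, 129 and 111, 2078 and 998, and 451 and 110. The number of segments lower was 1 with no filter and 0 with the 1 CPM filter, beside 187 of 43065 and 150 of 12562 genes. Of the kappa list, 7 lower became 2 at 0.01, 11 with no filter, 0 with sex as a covariate, 2 without replicates 3 and 4, 13 with total reads and 11 with the authors' size factors. The all-gene counts lower by TMM under these settings are given above, and were 1276 of 17396 without replicates 3 and 4. For the segments, edgeR called 6 and 10 by TMM and 8 and 2 per Igkv read, and DESeq2 5 and 12. Over all genes these were 2675 and 2665, 2335 and 275, and 3110 and 3027. The cause of each shift was not tested.

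Leaving out 1 library at a time gave 2 (without WT replicate 1) to 13 (without WT replicate 3) higher and 3 (without cKO MED1 replicate 2 or 4) to 16 (without cKO MED1 replicate 3) lower by TMM. WT replicate 2 and cKO MED1 replicate 3 each left 3 higher, and WT replicate 3 left 4 lower. Over all genes the TMM calls ranged from 527 higher and 1029 lower (without WT replicate 1) to 3011 and 3114 (without cKO MED1 replicate 1). Per Igkv read, leaving out 1 library gave 0 (without WT replicate 2) to 6 segments higher, with 1 without WT replicate 1 or cKO MED1 replicate 4, and 0 to 5 (without cKO MED1 replicate 3) lower. Over all genes it gave 528 (without WT replicate 1) to 2061 (without cKO MED1 replicate 1) higher, and 89 (without WT replicate 1) to 880 (without WT replicate 3) lower. Of the kappa list 3 (without WT replicate 1) to 11 (without cKO MED1 replicate 1) were lower, and 4 without cKO MED1 replicate 4. Leaving out 1 library gave 9 to 12 families without overlap. The difference in pseudogene share, -0.236, ranged from -0.259 to -0.217 and was -0.250 without replicates 3 and 4, where no exact p below 0.1 is possible. The inverted share, -0.311, ranged from -0.799 to 0.546, turning over without WT replicate 2 (0.401), without cKO MED1 replicate 4 (0.546) and without replicates 3 and 4 (0.477). The J-distal share, 0.826, ranged from -0.0689 to 1.59, and was -0.0689, -0.0560 and -0.215 under the same settings.

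The main fits did not take the replicate number to pair the samples. The correlations of same-numbered deviations were 0.515, -0.235 and 0.163, and only replicate 1 correlated best with its own number. So few correlations cannot decide whether the samples were paired. Depth limits the rare segments: 14 of the 121 did not pass the low-count filter.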
